A study of Mus musculus with 12 samples.

Results

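Chemokines are small secreted proteins that steer cell migration, and their receptors are G protein-coupled receptors on the responding cell. Bone marrow progenitors use them to stay beside stromal cells that produce Cxcl12, the ligand of Cxcr4, while monocytes and neutrophils leave the marrow with the help of Ccr2 and Cxcr2. The genes described here are 4 chemokine genes of the CC class (Ccl3, Ccl4, Ccl6 and Ccl9) and 6 receptor genes (Ccr1, Ccr2, Ccr7, Cx3cr1, Cxcr2 and Cxcr4). They were taken as every probe set, a group of short probes read as 1 value, that is annotated with exactly 1 of these symbols. The rule found 17 probe sets of 10 genes, out of 45037 probe sets and 18193 genes.

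Expression was measured on 12 Affymetrix Mouse Genome arrays, 3 for each of 4 sorted progenitor populations. All were lineage-negative, CD117+ and Sca-1- marrow cells of female C57BL/6 mice aged 4 to 6 weeks. The labels name no treatment and no altered allele. Common myeloid progenitors (CMP), sorted as CD34+ and CD16/32-, were divided by the surface protein CD27 into CD27+ CMP and CD27- CMP. Granulocyte-monocyte progenitors (GMP) were sorted as CD34+, CD16/32+ and CD27+, and megakaryocyte-erythrocyte progenitors (MEP) as CD34-, CD16/32- and CD27-. Both CD27+ groups therefore share that gate, as do both CD27- groups. RNA came from 80000 cells of each population, and the labels call the arrays of a group biological replicates. They do not say whether these came from separate animals, so p-values measure the spread between these arrays alone.

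Each deposited value is a signal, read here as log2, relative to the median of the 12 arrays for that probe set, so 0 is the median array and not an absence of signal. When the 6 arrays of the CD27+ populations all lie above the other 6, the lowest of the high arrays and the highest of the low ones lie equally far from 0 by construction. The log base was inferred and not stated, and every fold rests on it. Levels of different genes cannot be set against each other on this scale. In bulk samples, fewer cells of a type and less RNA per cell cannot be told apart. A gene with several probe sets is led here by the one with the largest standard deviation (SD) over the arrays, and the others are given beside it.

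The labels were checked with marker genes. All 5 markers of erythroid progenitors (Gata1, Klf1, Epor, Gfi1b and Rhd) were lower in CD27+ CMP than in CD27- CMP and lower in GMP than in MEP. All 5 markers of granulocyte-monocyte progenitors (Cebpa, Mpo, Elane, Ctsg and Csf1r) were higher in both of those comparisons. Of the markers of other cells, 6 of 7 for T and NK cells (Cd3e, Cd3g, Cd3d, Cd4, Cd8a and Ncr1), 4 of 5 for B cells (Cd79a, Ms4a1, Pax5 and Cd22) and 3 of 5 for mature neutrophils (Ltf, Camp and Ngp) varied by under 0.5 log2 over all arrays. The others varied more. For Cd79b the CD27+ CMP mean exceeded the CD27- CMP mean by 5.10, and GMP exceeded MEP by 6.01 (limma adjusted p = 1.5e-05 and 4.3e-06), and for Nkg7 the differences were 3.19 and 6.46 (adjusted p = 4.3e-05 and 3.8e-07). The neutrophil collagenase gene Mmp8 had a range of 2.35 and a difference of 1.02 between CD27+ and CD27- CMP that did not pass (adjusted p = 0.21), and Mmp9 had a range of 0.71.

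Upstream sequences are shown for 2 ligand genes and 2 receptor genes as examples with a match, chosen after the sequences had been read. They are the 250 bases before the RefSeq start site in build GRCm38.p6, written 5′ to 3′ on the gene's own strand. Capitals mark matches, on either strand, to AGATAA, the letters bound by GATA factors, or to GAGGAA or GGAAGT, core letters of ETS factors such as PU.1. GGAAGT was added after the sequences had been read.
Ccl9, chr11:83578637-83578886, minus strand: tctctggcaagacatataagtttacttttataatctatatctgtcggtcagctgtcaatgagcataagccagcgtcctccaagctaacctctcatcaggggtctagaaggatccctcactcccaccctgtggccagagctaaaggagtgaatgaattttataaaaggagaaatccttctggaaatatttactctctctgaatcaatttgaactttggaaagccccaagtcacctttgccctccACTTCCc
Ccl6, chr11:83593088-83593337, minus strand: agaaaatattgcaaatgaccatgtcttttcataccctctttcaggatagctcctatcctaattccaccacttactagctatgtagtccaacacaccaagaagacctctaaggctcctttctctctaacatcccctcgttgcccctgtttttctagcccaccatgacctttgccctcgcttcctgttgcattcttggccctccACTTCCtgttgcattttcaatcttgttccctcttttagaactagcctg
Ccr2, chr9:124101933-124102182, plus strand: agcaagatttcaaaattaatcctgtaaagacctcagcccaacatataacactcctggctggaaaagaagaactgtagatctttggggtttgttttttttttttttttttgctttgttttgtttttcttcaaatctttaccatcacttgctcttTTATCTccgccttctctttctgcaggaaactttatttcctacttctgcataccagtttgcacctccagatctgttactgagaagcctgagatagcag
Ccr1, chr9:123968693-123968942, minus strand: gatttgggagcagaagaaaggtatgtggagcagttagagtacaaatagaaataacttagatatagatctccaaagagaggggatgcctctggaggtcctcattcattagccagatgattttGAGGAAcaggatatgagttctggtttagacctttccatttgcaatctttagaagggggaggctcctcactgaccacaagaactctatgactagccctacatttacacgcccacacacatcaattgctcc

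The Ccl9 and Ccl6 sequences each held 1 match to GGAAGT, a word present in 19.7% of the 32851 upstream sequences searched. Ccr1 held 1 match to GAGGAA, found in 23.3% of all sequences, and Ccr2 held 1 match to AGATAA, found in 9.99%. The C/EBP word TTGCNNAA, present in 9.56% of all sequences, had 0 matches in these 4. Of the other members in the sequence table, Cxcr2 and Ccl3 each held 1 match to GAGGAA and 1 to GGAAGT, while Cxcr4 and Cx3cr1 held 0 matches to any of the 4 words. A match describes the letters and is no evidence of binding.

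All 6 CD27+ CMP and GMP arrays lay above all 6 CD27- CMP and MEP arrays for 12 of the 17 probe sets, against 6.9% of all probe sets in that direction. By leading probe set this held for 7 of the 10 genes, namely Ccl6, Ccl9, Ccr1, Ccr2, Cx3cr1, Cxcr2 and Cxcr4, against 10.2% of all genes. Ccl3, Ccl4 and Ccr7 were the other three. The plot of all probe sets shows this division array by array.

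**Figure D1:**
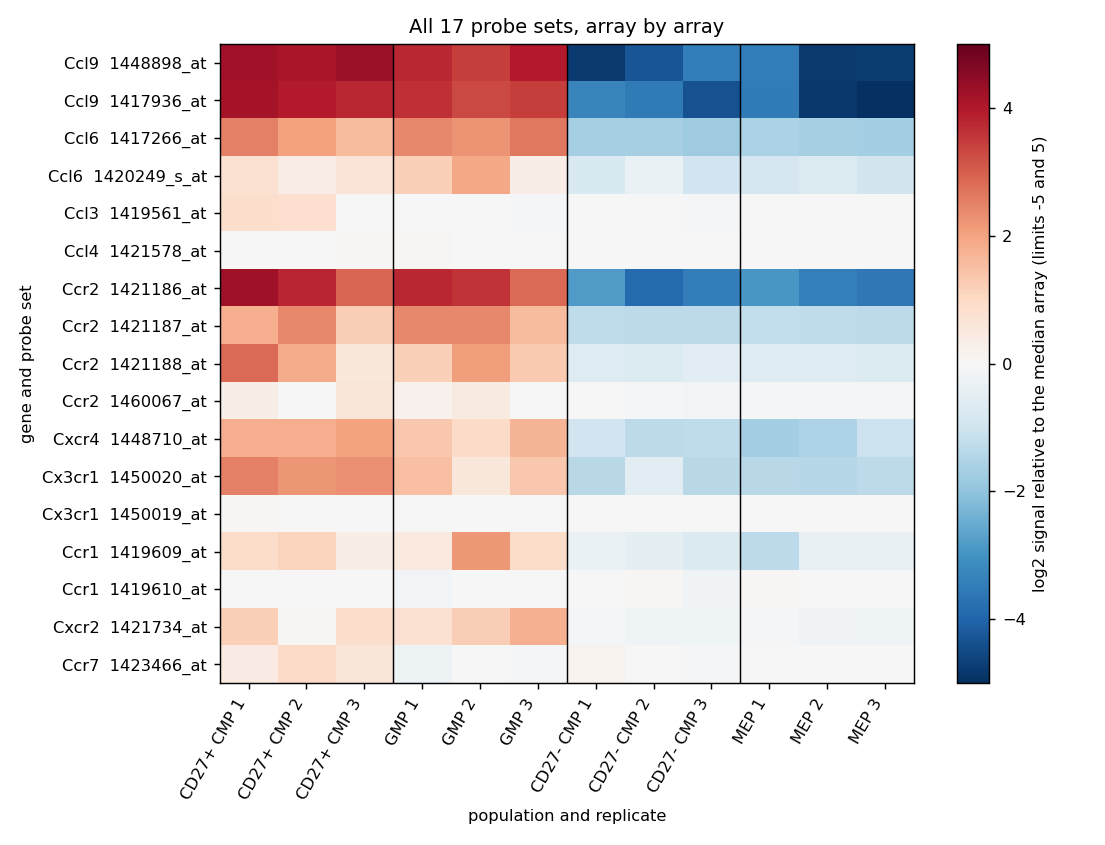
Log2 signal relative to the median array for the 17 probe sets (rows, with the gene symbol) in the 12 arrays (columns, by population and replicate), with the colour scale limited to -5 and 5. Red in the 6 CD27+ CMP and GMP columns against blue in the 6 CD27- CMP and MEP columns shows the larger of the 12 separations, and rows near white had differences too small to colour.

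Ccl9 (also called MIP-1 gamma) attracts cells that carry Ccr1. Its leading probe set read 4.20, 4.08 and 4.32 in CD27+ CMP, 3.77, 3.44 and 3.96 in GMP, -3.44, -4.78 and -4.74 in MEP and -4.80, -4.29 and -3.47 in CD27- CMP. Both CD27+ populations were high and both CD27- populations low, with no array in between. The difference was 8.39 log2, or 335-fold, between CD27+ and CD27- CMP (SE 0.41, limma adjusted p = 1e-06, n = 3 per group) and 8.05, or 265-fold, between GMP and MEP (SE 0.41, limma adjusted p = 1e-06).

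The second Ccl9 probe set gave 8.43 log2 for GMP over MEP (SE 0.64, limma adjusted p = 1.5e-05) and 7.69 for CD27+ over CD27- CMP (SE 0.64, limma adjusted p = 3.3e-05). It differed from the first in how the low arrays spread. The 3 MEP arrays read -3.48, -4.81 and -6.56, a wide spread, while the CD27- CMP arrays read -3.31, -3.53 and -4.36. CD27- CMP stood above MEP by 1.22 on this probe set (SE 0.64, adjusted p = 0.79 by limma) and by 0.13 on the other, so neither separated the CD27- populations.

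Ccl6, a neighbouring CC chemokine made by myeloid cells, followed the same division at a smaller size. The leading probe set read 2.53, 2.03 and 1.58 in CD27+ CMP and 2.40, 2.26 and 2.62 in GMP. The CD27- arrays were tightly grouped, at -1.58, -1.65 and -1.68 in MEP and -1.65, -1.66 and -1.79 in CD27- CMP. Ccl6 rose by 3.75 log2 (13.4-fold) in CD27+ over CD27- CMP (SE 0.20, limma adjusted p = 1.9e-06) and by 4.06 (16.7-fold) in GMP over MEP (SE 0.20, limma adjusted p = 8.9e-07).

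A second Ccl6 probe set, whose suffix marks probes that can match several transcripts, gave smaller differences of 1.28 (SE 0.34, limma adjusted p = 0.035) and 1.95 (SE 0.34, limma adjusted p = 0.0036). Its GMP arrays were spread, at 1.18, 1.93 and 0.33. The first of these calls was lost on leaving out any 1 of 9 of the 12 arrays, with adjusted p between 0.053 and 0.12. CD27+ CMP and GMP did not differ past the threshold on either Ccl6 probe set, at -0.38 (SE 0.20, limma adjusted p = 0.69) and -0.54 (SE 0.34, limma adjusted p = 0.87).

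Ccl3 and Ccl4 (MIP-1 alpha and MIP-1 beta) are inflammatory chemokines, and Ccl3 is a ligand of Ccr1. Ccl3 read 0.88, 0.85 and 0.01 in CD27+ CMP, while the 9 arrays of the other populations lay between -0.05 and 0.02. So 2 CD27+ CMP arrays stood out and the third did not. The difference was 0.60 log2 from CD27- CMP (SE 0.19, limma adjusted p = 0.075), 0.61 from GMP (SE 0.19, limma adjusted p = 0.20) and 0.58 from MEP (SE 0.19, limma adjusted p = 0.078), and none passed. The value depended on which CD27+ CMP array was left out. Against CD27- CMP it was 0.45 without replicate 1 (adjusted p = 0.24), 0.47 without replicate 2 (adjusted p = 0.23) and 0.89 without replicate 3, the array that lacked the rise (adjusted p = 6.1e-07).

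Ccl4 varied by 0.10 log2 over all 12 arrays, from -0.03 to 0.07, and passed in none of the 6 comparisons (adjusted p from 0.59 to 1.00 by limma). Its level is not known from centred values. In the RefSeq gene order of GRCm38.p6 the genes Ccl5, Ccl9, Ccl6, Ccl3 and Ccl4 stand next to each other on chromosome 11 in that order. Ccl9 and Ccl6 therefore adjoin Ccl3 and Ccl4, which did not share their division.

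**Figure D2:**
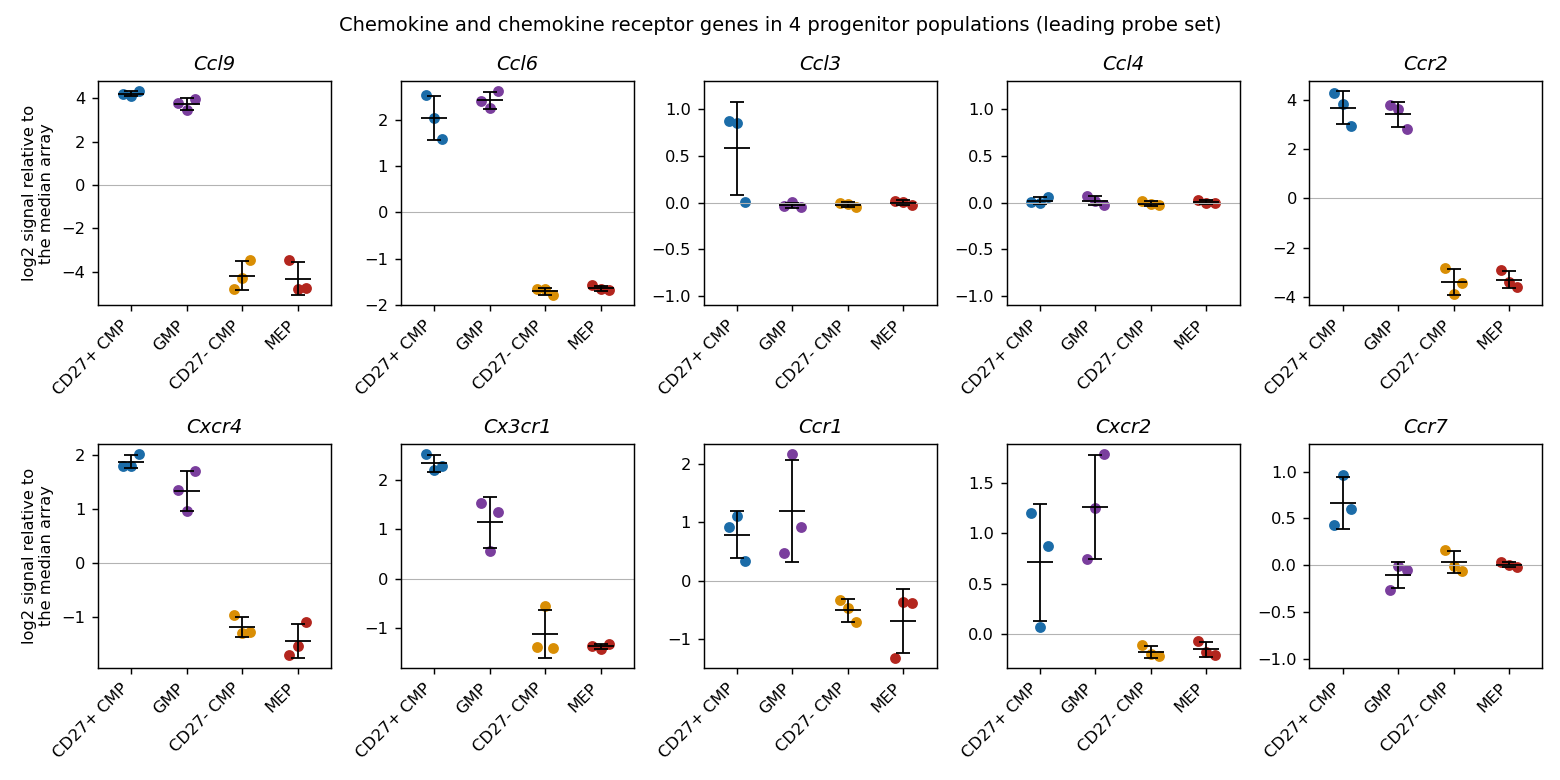
Log2 signal relative to the median array (y axis, with its own scale in each panel) for the leading probe set of the 10 genes, by population (x axis); points are the 3 arrays, and black bars give the mean ± SD. In 7 panels the CD27+ CMP and GMP points all lie above the CD27- CMP and MEP points, Ccr7 is raised in CD27+ CMP alone, Ccl3 in 2 CD27+ CMP arrays, and Ccl4 lies flat.

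Ccr2 binds Ccl2 and related ligands and is required for monocytes to leave the marrow. On the leading probe set the arrays read 4.25, 3.82 and 2.93 in CD27+ CMP, 3.77, 3.61 and 2.82 in GMP, -2.92, -3.40 and -3.57 in MEP and -2.82, -3.88 and -3.44 in CD27- CMP. Replicate 3 was the lowest array of both CD27+ populations and still lay far above every CD27- array. CD27+ CMP exceeded CD27- CMP by 7.05 log2 (132-fold, SE 0.41, limma adjusted p = 3.1e-06), and GMP exceeded MEP by 6.70 (104-fold, SE 0.41, limma adjusted p = 3.4e-06).

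Ccr2 is measured by 4 probe sets, and the size of its difference depended on which was read. For CD27+ over CD27- CMP the other three gave 3.12 (SE 0.29, limma adjusted p = 6.3e-05), 2.36 (SE 0.49, adjusted p = 0.0097) and 0.37 (SE 0.15, adjusted p = 0.16). The call at 2.36 was lost with only the 6 arrays compared in the fit (adjusted p = 0.089). The direction was shared by all 4, and in each of them all 6 CD27+ arrays lay above the 6 CD27- arrays. On the probe set at 0.37 the gap was very narrow, from -0.0034 in the highest CD27- array to 0.0034 in the lowest CD27+ array. In the probe set at 3.12 the CD27- arrays ran from -1.32 to -1.25, a range of 0.07 log2. CD27+ CMP and GMP differed by 0.26 on the leading probe set and by -0.31, 0.21 and 0.07 on the others, and none passed.

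Cxcr4, the receptor that holds progenitors in the marrow through Cxcl12, has 1 probe set. Its values were 1.80, 1.80 and 2.02 in CD27+ CMP, 1.35, 0.96 and 1.70 in GMP, -1.69, -1.53 and -1.08 in MEP and -0.96, -1.29 and -1.27 in CD27- CMP. Within the CMP gate Cxcr4 differed by 3.05 log2 in favour of CD27+ cells (8.29-fold, SE 0.21, limma adjusted p = 8.3e-06), and GMP was higher than MEP by 2.77 (6.82-fold, SE 0.21, limma adjusted p = 1.3e-05). The 3 CD27+ CMP arrays lay above the 3 GMP arrays, yet that difference of 0.54 did not pass (SE 0.21, limma adjusted p = 0.35).

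Cx3cr1 is the receptor of fractalkine and a mark of monocytes and of their macrophage and dendritic cell precursors. The leading probe set read 2.52, 2.19 and 2.27 in CD27+ CMP, 1.52, 0.56 and 1.35 in GMP, -1.37, -1.42 and -1.31 in MEP and -1.39, -0.56 and -1.40 in CD27- CMP. CD27+ CMP was the highest population, with all 3 arrays above every other array. The difference was 3.44 log2 over CD27- CMP (10.9-fold, SE 0.28, limma adjusted p = 2.8e-05) and 2.51 for GMP over MEP (5.69-fold, SE 0.28, limma adjusted p = 2.0e-04). CD27+ CMP exceeded GMP by 1.18, which did not pass (SE 0.28, limma adjusted p = 0.065). With 1 array left out the adjusted p ran from 0.032 to 0.20. Of these fits, only the one without CD27- CMP replicate 2, an array outside this comparison, brought it under the threshold. Dropping probe sets that varied by under 1 log2 also did so (adjusted p = 0.015). Array weights, which stopped before convergence, gave 0.011. The other alternatives of the closing section left it uncalled. The other Cx3cr1 probe set varied by 0.08 over all arrays.

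Ccr1, a receptor for Ccl3, Ccl6 and Ccl9 on myeloid cells, differed less. Its leading probe set read 0.92, 1.10 and 0.33 in CD27+ CMP, 0.48, 2.17 and 0.92 in GMP, -1.32, -0.36 and -0.39 in MEP and -0.33, -0.47 and -0.72 in CD27- CMP. CD27+ CMP and GMP overlapped, and both lay above the CD27- populations. GMP exceeded MEP by 1.88 log2 (3.68-fold, SE 0.43, limma adjusted p = 0.017), a call that was lost without MEP replicate 1 (1.56, adjusted p = 0.062). GMP also exceeded CD27- CMP, with CD27- CMP minus GMP at -1.69 (SE 0.43, limma adjusted p = 0.029), and this was lost without GMP replicate 2 (-1.21, adjusted p = 0.059) or without CD27- CMP replicate 1, 2 or 3 (adjusted p = 0.060, 0.076 and 0.071). With only the 6 arrays compared in the fit both calls were lost (adjusted p = 0.096 and 0.11).

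The 1.29 by which CD27+ CMP exceeded CD27- CMP in Ccr1 did not pass (SE 0.43, limma adjusted p = 0.093). With 1 array left out the adjusted p ran from 0.025 to 0.25. Of these fits, only the one without GMP replicate 2, an array outside this comparison, brought it under the threshold. The CMP difference also passed with only the 6 arrays compared in the fit (adjusted p = 0.031). Dropping probe sets that varied by under 1 log2 gave an adjusted p of 0.016. Array weights, which stopped before convergence, gave 0.0033. The other alternatives of the closing section left it uncalled. Against MEP the difference of 1.47 passed narrowly (SE 0.43, limma adjusted p = 0.0496), and was lost on leaving out any 1 of 10 of the 12 arrays, with adjusted p between 0.057 and 0.17. The second Ccr1 probe set varied by 0.24 over the 12 arrays and passed in no comparison.

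Cxcr2, the receptor that draws neutrophils out of the marrow toward CXC chemokines, was highest in GMP. Its 1 probe set had GMP values of 0.75, 1.25 and 1.79, against 1.20, 0.07 and 0.87 for CD27+ CMP. Those of the CD27- populations ran from -0.22 to -0.07. GMP exceeded MEP by 1.41 log2 (2.67-fold, SE 0.30, limma adjusted p = 0.011) and CD27- CMP by a similar amount, with CD27- CMP minus GMP at -1.44 (SE 0.30, limma adjusted p = 0.011). The difference of 0.89 between CD27+ and CD27- CMP did not pass (SE 0.30, limma adjusted p = 0.098). Without CD27+ CMP replicate 1, 2 or 3 it was 0.65, 1.21 or 0.81 (adjusted p = 0.30, 0.014 and 0.26), so of these it passed only without replicate 2, the lowest array. CD27+ CMP and GMP, which overlapped, differed by -0.55 (SE 0.30, limma adjusted p = 0.74).

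Ccr7 guides lymphocytes and mature dendritic cells to lymphoid organs. Its 1 probe set read 0.43, 0.97 and 0.60 in CD27+ CMP, -0.26, -0.01 and -0.05 in GMP, 0.03, 0.01 and -0.02 in MEP and 0.16, -0.01 and -0.06 in CD27- CMP. CD27+ CMP lay above all other arrays. The difference was 0.63 log2 over CD27- CMP (1.55-fold, SE 0.13, limma adjusted p = 0.0086), 0.77 over GMP (SE 0.13, limma adjusted p = 0.011) and 0.66 over MEP (SE 0.13, limma adjusted p = 0.0060). CD27- CMP, GMP and MEP did not differ from each other past the threshold (adjusted p from 0.53 to 0.95). With only the 6 arrays compared in the fit, the calls over CD27- CMP and GMP were lost (adjusted p = 0.079 and 0.14).

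Counts over the members follow from these values. In CD27+ against CD27- CMP, 10 of 17 probe sets were higher, where 7.65% of all probe sets were. In GMP against MEP 11 were higher, where 7.54% of all were, and in CD27+ CMP against MEP 11 were higher, where 7.67% of all were. In CD27- CMP against GMP 11 were lower, where 7.9% of all were. The median difference of the 17 probe sets was 1.29 log2 in the first of these comparisons and 1.95 in GMP against MEP, against medians of -0.02 and -0.04 over all probe sets. These 4 comparisons share groups and are not independent of each other.

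Within each CD27 class little passed. CD27+ CMP against GMP gave 1 of 17 probe sets higher, that of Ccr7, where 1.47% of all were higher. For 6 of the 17 the CD27+ CMP arrays lay entirely above the GMP arrays, where 5.54% of all probe sets did, and these were both probe sets of Ccl9 and those of Ccl3, Cxcr4, Ccr7 and the leading one of Cx3cr1. CD27- CMP against MEP gave 0 of 17 by limma, with 0 at an unadjusted p under 0.05, where 0.0444% of all probe sets were called in either direction. The largest difference there was the 1.22 of the second Ccl9 probe set.

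**Figure D3:**
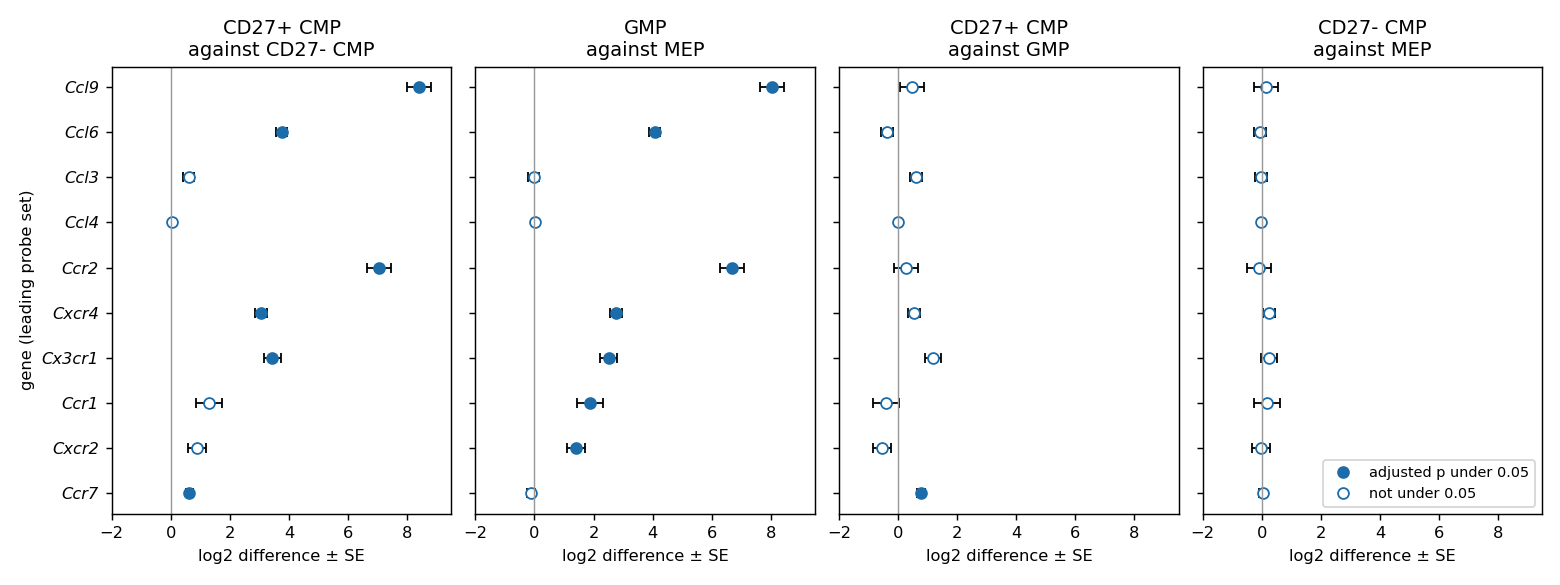
Log2 difference ± SE (x axis) of the leading probe set of the 10 genes (y axis) in 4 comparisons, each with 3 arrays per group; filled points had an adjusted p under 0.05. The points of Ccl9, Ccr2, Ccl6, Cxcr4 and Cx3cr1 are far from 0 in the left pair of panels, whereas all 10 points of CD27- CMP against MEP are open and lie between -0.08 and 0.26.

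The rest of the chemokine system was read from lists by leading probe set. Of 14 other CC chemokine genes 1 rose in CD27+ CMP over CD27- CMP, where 11.3% of all genes did, and the list's median difference was -0.03 log2, as was that of all genes. That gene was Ccl5 (RANTES), a T cell and NK cell chemokine and a neighbour of Ccl9. It read 3.18, 3.19 and 3.77 in CD27+ CMP, and the 9 other arrays lay between -0.07 and 0.19. Ccl5 thus was raised in CD27+ CMP alone, by 3.42 over CD27- CMP (SE 0.14, limma adjusted p = 3.8e-07), 3.34 over GMP (adjusted p = 4.0e-06) and 3.37 over MEP (adjusted p = 3.4e-07).

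In GMP against MEP 0 of these 14 genes passed by limma, with 2 at an unadjusted p under 0.05, where 11.0% of all genes were higher and 10.1% lower. Besides Ccl5, Ccl25 was lower in CD27+ CMP than in MEP, at -0.99 log2 (adjusted p = 0.015). Variation was under 0.5 log2 over all arrays for 10 of the 14, among them Ccl8 and the Ccr2 ligand genes Ccl2, Ccl7 and Ccl12.

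Of 17 CXC, CX3C and XC chemokine genes 12 were equally flat, among them Cxcl12, the ligand of Cxcr4, and Cxcl1, Cxcl2, Cxcl3 and Cxcl5, ligands of Cxcr2. The 1 that passed in any comparison was Pf4, the platelet chemokine, which was higher in CD27- CMP than in GMP by 2.64 (SE 0.56, adjusted p = 0.011 by limma), where 9.1% of all genes were. Its values in CD27- CMP were 2.99, 0.64 and 1.24, against -1.04, -1.45 and -0.56 for GMP. None of 15 other chemokine receptor genes passed in any of the 6 comparisons by limma, with at most 2 at an unadjusted p under 0.05 in any of them. Over all genes the share called in either direction ran from 0.033% in CD27- CMP against MEP to 22.7% in CD27+ CMP against MEP. The receptors Ccr3, Ccr4, Ccr6, Ccr8, Ccr10, Cxcr3, Cxcr5, Cxcr6 and Xcr1 and the atypical receptors Ackr1, Ackr2 and Ackr3 varied by under 0.5 log2. Ccr3, which stands beside Ccr2 in the gene order of chromosome 9, was one of these.

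Genes that carry the signal inside the cell were read next. Of 26 measured genes of chemokine receptor signalling, 18 were higher and 1 lower in CD27+ than in CD27- CMP, where 11.3% and 9.31% of all genes were, with a list median of 1.31 log2 against -0.03 for all genes. GMP against MEP gave 16 higher and 1 lower, where 11.0% and 10.1% of all genes were, with a median of 1.24 against -0.04. Among the G protein genes, the gamma subunit gene Gng2 was higher by 5.20 in CD27+ over CD27- CMP (SE 0.50, adjusted p = 8.1e-05) and the inhibitory alpha subunit gene Gnai2 by 1.49 (adjusted p = 0.0016). Pik3cg, the catalytic subunit of PI3 kinase gamma, differed by 3.18 (adjusted p = 2.1e-05) and the phospholipase gene Plcb2 by 3.63 (adjusted p = 1.4e-06). Leading probe sets of further genes called on this list gave 4.20 for Elmo1, 2.51 for Rac2, 1.80 for Dock2, 1.65 for Prex1 and 1.44 for Vav1. Probe sets of a gene did not always share its call: the other Dock2 probe sets gave 0.21 and 0.37 (adjusted p = 0.35 and 0.42), a further one of Elmo1 gave 0.16 (adjusted p = 0.57), one of Gng2 gave 0.21 (adjusted p = 0.41), and one of Rgs2 gave -0.01 (adjusted p = 0.89).

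Regulators that shorten or end receptor signalling were among the same genes. Rgs2, which speeds the switching off of G proteins, differed by 6.46 between CD27+ and CD27- CMP (adjusted p = 3.4e-06 by limma), and Rgs19 by 2.68 (adjusted p = 4.4e-07). Rgs1 resembled Ccl5 and Ccr7 in its pattern. It read 2.23, 1.68 and 1.07 in CD27+ CMP and between -0.42 and 0.15 in the other 9 arrays, and was higher there than in CD27- CMP by 1.61 (adjusted p = 0.0018), GMP by 1.85 (adjusted p = 0.0039) and MEP by 1.82 (adjusted p = 7.5e-04). The beta-arrestin genes split, with Arrb1 lower in CD27+ CMP than in CD27- CMP by -1.24 (adjusted p = 0.0092) and Arrb2 higher by 1.04 (adjusted p = 0.025).

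Among 11 adhesion and other chemoattractant receptor genes, 3 passed in CD27+ against CD27- CMP, all of them higher, where 11.3% of all genes were higher and 9.31% lower. The list median was -0.04 log2 against -0.03 for all genes, and Fpr2, C5ar1, C3ar1, S1pr1 and Ptafr varied by under 0.5. S1pr3, a sphingosine 1-phosphate receptor, differed by 8.04, Ltb4r1, the leukotriene B4 receptor, by 3.45, and the hyaluronan receptor gene Cd44 by 0.69 (adjusted p = 0.035). Other probe sets disagreed in part, with S1pr3 also at 4.77 and 0.02 (adjusted p = 3.5e-07 and 0.71) and Cd44 at 0.51, 0.26 and -0.03 (adjusted p = 0.053, 0.21 and 0.63). In CD27+ CMP against MEP 2 of the 11 were higher and 1 lower, where 11.3% and 11.5% of all genes were. The lower one was the integrin gene Itgb1, at -0.97 (limma adjusted p = 0.0496). Itga4, at -0.91, did not pass (adjusted p = 0.081). Ltb4r1 and Vcam1, an adhesion molecule, were higher in GMP than in CD27+ CMP, with CD27+ CMP minus GMP at -2.70 (adjusted p = 2.6e-05) and -4.89 (adjusted p = 7.5e-04). Vcam1 had GMP values of 5.68, 5.85 and 3.74, while the 9 other arrays lay between -0.10 and 0.72, though its other probe sets gave 0.78 and 0.00 for GMP over MEP and did not pass (adjusted p = 0.16 and 0.95).

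**Figure D4:**
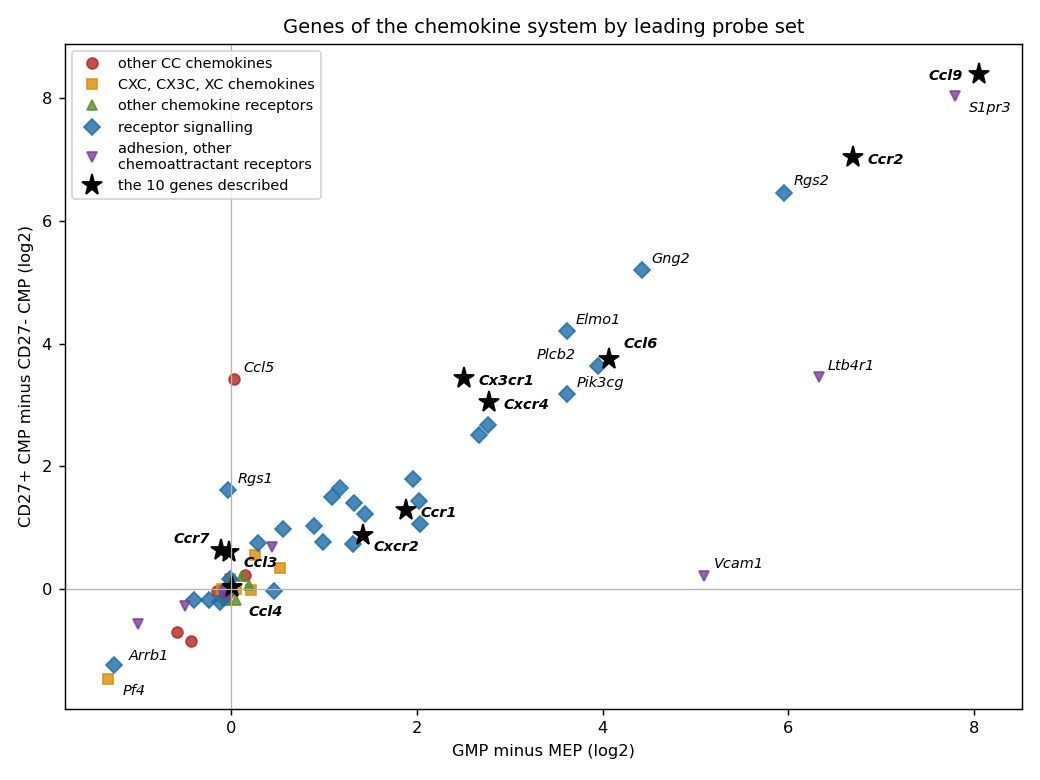
Log2 difference of CD27+ CMP over CD27- CMP (y axis) against that of GMP over MEP (x axis), 3 arrays per group, for the leading probe set of the 10 genes (stars) and of 5 lists (other symbols). Ccl9 and Ccr2 lie at the upper right with S1pr3 and Rgs2, Ccl5 and Rgs1 lie above 0 on the y axis and near 0 on the x axis, and Vcam1 lies far to the right and near 0 on the y axis.

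Genes most like the members over the 12 arrays were taken by the root mean square difference, for the 5 members whose leading probe set had an SD of at least 1 log2, among 16331 named genes. Bex6 (0.43 log2), Serpinf1 (0.48) and Cd53 (0.495) were nearest to Ccl9. Dhrs7 (0.20), Thbd (0.23) and Plcb2 (0.24) were nearest to Ccl6. For Ccr2 the nearest were Clec4e (0.40), Parp8 (0.42) and Sh2d5 (0.44), for Cx3cr1 Tpm2 (0.31), Cyria (0.32) and Tnfaip8l2 (0.33), and for Cxcr4 Tram2 (0.23), Zfp275 (0.25) and Cmtm7 (0.26).

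Markers of mature cells that carry these receptors were read beside them. Of 9 markers of mature monocytes and macrophages, Cd68 was raised in CD27+ CMP over CD27- CMP (6.49, adjusted p = 1.7e-07), and Cd68 and Adgre1 were higher in GMP than in MEP (5.88 and 2.96, adjusted p = 2.6e-07 and 3.4e-05). The mean of the 9 markers ran from 0.39 to 0.44 log2 in the CD27+ CMP arrays, 0.57 to 0.68 in GMP, -0.43 to -0.21 in CD27- CMP and -0.38 to -0.30 in MEP. The median difference of the 9 was -0.01 between CD27+ and CD27- CMP and -0.03 between GMP and MEP. These means therefore followed a few genes such as Cd68. Of the 9 markers, Mrc1, Marco, Cd5l, C1qa, C1qc and Vsig4 varied by under 0.5. Their part in the values of Ccr1, Ccr2, Cx3cr1, Ccl6 and Ccl9 was not tested. Of 5 markers of mature neutrophils, which carry Cxcr2, 0 passed by limma in any comparison, with 0 at an unadjusted p under 0.05 in GMP against MEP and 1 in CD27+ against CD27- CMP. Over all genes, 20.6% were called in either direction in CD27+ against CD27- CMP and 21.0% in GMP against MEP. The mean of the 5 neutrophil markers ran from 0.05 to 0.45 in CD27+ CMP, -0.02 to 0.08 in GMP, -0.04 to 0.03 in CD27- CMP and 0.00 to 0.15 in MEP. In CD27+ CMP this mean followed Mmp8, with a group mean of 1.00, while Ltf, Camp, Ngp and Mmp9 had group means from -0.03 to -0.01.

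The populations with raised Ccr7 and Ccl5 were also read for lymphoid and dendritic cell markers. Of 7 markers of T and NK cells only Nkg7 passed, at 3.19 for CD27+ over CD27- CMP (adjusted p = 4.3e-05) and -1.82 for CD27+ CMP minus GMP (adjusted p = 0.0074). Over all genes, 20.6% and 4.52% were called in either direction in these comparisons. The mean of the 7 T and NK cell markers ran from 0.18 to 0.22 in CD27+ CMP and 0.45 to 0.56 in GMP. It ran from -0.26 to -0.19 in CD27- CMP and -0.53 to -0.36 in MEP. This mean followed Nkg7, with group means of 1.54, 3.36, -1.65 and -3.10 in that order. The other 6 markers varied by under 0.5 log2. Of 7 dendritic cell markers Itgax was higher in CD27+ CMP than in each other population. The differences were 0.44 over CD27- CMP, 0.44 over GMP and 0.42 over MEP (limma adjusted p = 0.0021, 0.0097 and 0.0025). Zbtb46 was lower in CD27+ CMP than in CD27- CMP and MEP, at -5.18 and -5.49 (adjusted p = 1.7e-07 and 1e-07). Siglech, Cd209a and Cd74 varied by under 0.5. The dendritic cell mean ran from -0.38 to -0.13 in CD27+ CMP, -0.48 to -0.42 in GMP, 0.41 to 0.50 in CD27- CMP and 0.44 to 0.51 in MEP. This mean followed the single gene Zbtb46, with group means of -2.47, -2.44, 2.71 and 3.03 in that order. Of 5 B cell markers only Cd79b passed, at 5.10 for CD27+ over CD27- CMP (adjusted p = 1.5e-05), and of 6 stromal and endothelial markers only Pdgfrb, at 4.20 (adjusted p = 1.2e-05). Pdgfrb was also higher in CD27+ CMP than in GMP, by 1.91 (limma adjusted p = 0.0092), whereas Cd79b differed there by 0.22 and did not pass. Their part in the values of Ccr7 and Ccl5 was not tested.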

How the data were processed

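The 12 arrays were deposited as 1 table of 45037 probe sets, and GCRMA is the method that the submitters' processing notes name. Neither its version nor the log base is given in the sources used here. The deposited values were taken to be log2, the scale GCRMA normally returns, and the folds rest on that inference. Each probe set's median over the arrays lies within 5e-07 of 0, so the deposited log2 values are centred, the absolute signal is lost and no filter on low signal could be set. Because GCRMA shrinks weak signal to background, folds against a group near background have an uncertain size. The platform annotation gave 1 symbol to 34945 probe sets, several to 932 and none to 9160, and 0 of the 932 named a member. All 10 genes were found by gene number in RefSeq GRCm38.p6.

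The fit used limma 3.58.1 under R 4.3.3 (lmFit and eBayes, 1 mean per population, all 12 arrays together, prior degrees of freedom 0.992). Tests were two-sided, and adjusted p is the Benjamini-Hochberg value over all 45037 probe sets, with a threshold of 0.05. The scripts were tested on artificial data with known changes. Precision is limited by how few arrays each group has. The members, lists, motifs and rule for named genes (all members, list genes called in a comparison with at least 1 log2, and the 3 genes most like each member) were chosen with earlier results of these data known. Wfdc17, Csrnp1, Slc25a38, Ccl25, Cd44, Itgb1, Itga4, Itgax, Mmp8, Mmp9 and genes given for being flat fall outside that rule and were chosen after their values were seen. Of 144 list and marker genes 132 had a probe set with 1 symbol. Deviations of same-numbered arrays correlated over 0.1 in 9 of 18 pairs (r from -0.328 to 0.576), and all 3 pairs did so for GMP with MEP (0.434, 0.275 and 0.576) and for CD27+ CMP with GMP (0.572, 0.226 and 0.261). The labels do not say what the numbers share, and the fit with the number as a block changed no call of a member. Alternatives are given in the closing section.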

Additional observations from a re-analysis of the deposited data

How the results depend on the processing

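Of the 6 counts of called probe sets among the 17, all but that of CD27+ CMP against GMP stayed within 1.5 times under the alternatives run. These were quantile normalization, arrays centred on their median, the replicate block, array weights, robust empirical Bayes, a range of at least 1 log2, only the 6 arrays compared, an adjusted p under 0.01, a difference of at least 1 log2, and each array left out. Without 1 array the counts ran from 9 to 11 (CD27+ against CD27- CMP), 10 to 11 (GMP against MEP), 9 to 12 (CD27+ CMP against MEP), 9 to 11 (CD27- CMP against GMP) and 0 to 0 (CD27- CMP against MEP).

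For CD27+ CMP against GMP the count of 1 became 6 with array weights, 2 with the range filter, and 0 with only the 6 arrays, with the stricter p or with the size threshold. It ran from 1 to 2 without 1 array, reaching 2 without CD27+ CMP replicate 3 or CD27- CMP replicate 2. The cause was not tested. The Ccr7 difference there had an adjusted p of 0.14 with only the 6 arrays. The array weights stopped before convergence, with 1.646e-07 for MEP replicate 2.

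Of 55 single differences followed, 44 were called and 0 reversed under any of these alternatives. All 4 calls each of both Ccl9 probe sets, the leading ones of Ccl6, Cx3cr1 and Cxcr4 and 2 of Ccr2 were kept throughout. With the replicate block, the 6 counts stayed at 10 (CD27+ against CD27- CMP), 11 (GMP against MEP), 1 (CD27+ CMP against GMP), 0 (CD27- CMP against MEP), 11 (CD27+ CMP against MEP) and 11 (CD27- CMP against GMP), and no single call changed. As a hint from the data on pairing, 9 of 12 arrays correlated best with their own number.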

Other observations

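Beyond the chemokine genes, the gene that follows Ccl4 in the order of chromosome 11 was Wfdc17, a gene of a whey acidic protein family. Chosen after its values were seen, it read 7.0, 7.78 and 6.94 in CD27+ CMP and between -0.10 and 0.75 in the other 9 arrays. Its difference was 7.30 log2 between CD27+ and CD27- CMP (adjusted p = 9.9e-08 by limma, n = 3 per group) and 0.38 between GMP and MEP (adjusted p = 0.36). With Ccl5 it made a pair of genes on either side of Ccl9, Ccl6, Ccl3 and Ccl4 that passed in CD27+ against CD27- CMP and did not in GMP against MEP. Near Cx3cr1 on chromosome 9, Csrnp1 was higher by 3.40 in CD27+ over CD27- CMP (adjusted p = 1.7e-04) and Slc25a38, a mitochondrial glycine carrier of haem synthesis, lower by -3.48 (adjusted p = 9.8e-05), while Ccr8, which stands between Cx3cr1 and Slc25a38, varied by 0.07 over all arrays.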
